A study of Homo sapiens with 18 samples.

Results

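Antisense RNAs whose symbols end in -AS1 were examined in U2OS-MycER cells after silencing of RAD21 and activation of Myc. The table lists 547 such symbols among 23399 genes, and 313 of them had a mean of at least 1 eRPKM over the 18 libraries. eRPKM (RPKM over exons) scales the reads of a gene by its exon length and by the depth of the library. The 313 RNAs were chosen by their name and by this measured mean, so their levels are a description and carry no test. An RNA near 0 in some groups entered only through a group where it was high, and the mean was under 1 over the 9 libraries without OHT for 11 of the RNAs, over the 9 with OHT for 8, over the 10 with siCtrl for 7 and over the 8 with siRAD21 for 2. The other 234 symbols lay below the mean of 1. BOK-AS1, ADPGK-AS1 and DBH-AS1 lay just inside it at 1.00 eRPKM each. LMCD1-AS1 at 0.992, PITRM1-AS1 at 0.972 and RBM26-AS1 at 0.964 eRPKM lay just outside.

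Antisense RNAs are transcribed from the DNA strand opposite to a neighbouring gene, and most do not code for protein. Some start close to the promoter of that gene and run away from it, so that both arise from 1 bidirectional promoter, and others run through the exons or introns of the gene. Individual antisense RNAs have been found to raise or lower the expression of their neighbour, to act on RNAs elsewhere, or to have no known role. RAD21 is a subunit of cohesin, the ring-shaped complex that holds sister chromatids together and shapes chromatin loops at CTCF sites. Myc is a transcription factor that pairs with Max and binds E-box sequences at promoters.

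U2OS is a human osteosarcoma line, and every group carried MycER, in which part of the estrogen receptor keeps Myc inactive until its ligand 4-hydroxytamoxifen (OHT) is added, from a retroviral vector. Cells were transfected with a control siRNA (siCtrl) or an siRNA pool against RAD21 (siRAD21), received 400 nM OHT or ethanol at the same time, and were collected at 24 or 48 h. Groups were siCtrl, siCtrl OHT, siRAD21 and siRAD21 OHT at both times, with 3 libraries each of siCtrl and siCtrl OHT at 48 h and 2 libraries in each other group. All cells came from 1 engineered population. The study's methods call the RNA-seq replicates biological, while the labels do not say which libraries came from separate cultures, and the p-values below measure the spread between these libraries.

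Library depths recovered from the values ran from 9647501 to 12678599 reads. RAD21 itself fell from 93.1 ± 3.96 eRPKM (SD, n = 3) in siCtrl to 11.2 ± 0.105 eRPKM (SD, n = 2) in siRAD21 libraries at 48 h, and MYC stood at 52.3 ± 2.33 (SD, n = 3) and 57.0 ± 0.812 eRPKM (SD, n = 2) in the same groups. At 24 h MYC stood at 53.4 ± 2.52 eRPKM in siCtrl and 44.7 ± 0.196 eRPKM in siRAD21 libraries (SD, n = 2 each). The study reported lower MYC mRNA by quantitative RT-PCR and lower endogenous Myc protein with siRAD21. Reads of the MycER transgene can fall on MYC, so these MYC values do not give the endogenous gene alone. Of 11 genes of the osteoblast lineage, 9 had a mean of at least 1 eRPKM, while COL1A2 reached at most 0.109 and TWIST1 at most 0.0516 eRPKM. Their summed level ran from 244 to 339 eRPKM over the libraries. Of 11 markers of other cell types, KRT8, EPCAM, CDH1 and CD68 had a mean of at least 1 eRPKM, and the summed level ran from 85.4 to 110 eRPKM. The siRAD21 OHT libraries at 48 h differed from each other by about the sampling noise of their reads, with a chi-square of 0.984 per gene where the pairs of the other groups gave 1.053 to 3.989, so they count as 1 sample in means and have no SD. Both entered the fit below, whose p-values for siRAD21 OHT at 48 h treat them as 2, and counts with their average in place of both are given beside those results. The siRAD21 libraries at 24 h, at 1.053 per gene, also lay near the sampling noise. They were kept as 2 samples, so their SD and p-values may understate the spread between cultures.

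The 313 antisense RNAs were mostly of low abundance. Their mean levels ran from 1.00 to 51.5 eRPKM with a median of 3.52, where the median of all 14993 genes with a mean of at least 1 eRPKM was 12.9. A level from 1 to 2 eRPKM was found for 89 RNAs, from 2 to 5 for 107, from 5 to 10 for 66, from 10 to 20 for 32 and above 20 for 19. The median RNA had 69.5 reads in its median library, and 14 RNAs had 3 reads or fewer in at least 1 library. These low counts limit the precision, and differences of low RNAs that passed no test may have been too small to detect at this depth.

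A small set of antisense RNAs was abundant, and of these FGD5-AS1 and LRRC75A-AS1 had group means within a narrow range. FGD5-AS1 was highest at a mean of 51.5 eRPKM, with group means from 46.7 to 58.6 eRPKM. LRRC75A-AS1, which the annotation now calls SNHG29 and which hosts small nucleolar RNAs, averaged 51.2 eRPKM with group means from 48.5 to 55.7. OIP5-AS1, also known as cyrano, averaged 48.8 eRPKM. Its siRAD21 libraries at 48 h stood at 34.0 and 37.5 eRPKM, below the 45.4, 49.9 and 46.2 eRPKM of siCtrl and the 49.0 and 50.1 eRPKM of siRAD21 OHT, though the change with siRAD21 of -0.40 on the log2 scale stayed short of the fold threshold used below. RAB30-AS1 averaged 36.5 and DLGAP1-AS1 33.4 eRPKM, and the latter changed with OHT as described below. Neighbours in this order, such as FGD5-AS1 and LRRC75A-AS1, had overlapping ranges over the libraries. Across all 313 RNAs the highest group mean was a median of 1.95 times the lowest, and 147 RNAs reached a ratio of at least 2 and 38 a ratio of at least 4. The highest group was siRAD21 at 48 h for 96 RNAs and siRAD21 at 24 h for 47. It was siCtrl at 24 h for 45 and siCtrl OHT at 24 h for 28. For siRAD21 OHT the counts were 37 at 48 h and 30 at 24 h. The groups with the most libraries, siCtrl and siCtrl OHT at 48 h, were highest for 20 and 10 RNAs. Neither these ratios nor the highest groups were counted over all genes. How far the number of libraries in a group shaped them was not tested.

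Positions in GRCh37 (hg19) were found for 303 of the 313 RNAs in the GENCODE annotation, 246 by their symbol and 57 by an older symbol. The annotation classes 294 as lncRNA genes, 4 as transcribed unitary pseudogenes and 4 as protein coding. Of the 309 RNAs whose partner, the gene named before the hyphen, has a row in the table, 299 pairs had positions. In 146 pairs the exons overlapped with starts more than 1000 bases apart, in 113 the pair lay head to head with starts within 1000 bases, in 38 the bodies overlapped and the exons did not, and 2 pairs lay apart. The head-to-head pairs had a median of 275 bases between their starts. The annotation now gives 38 of the RNAs a symbol ending in -DT, for divergent transcript, and 36 of the 37 of these with a placed partner lay head to head.

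The library kit does not mark the strand of origin, so reads on exon bases that a pair shares cannot be assigned to either gene. Of the 299 pairs, 205 shared annotated exon bases, with a median of 307 bases among them, and 94 shared none. With any gene, 239 of the 303 RNAs shared exon bases. A change of an antisense RNA that shares many bases with a changing partner is therefore uncertain, and shared bases are given below where a partner is described, as counted over all annotated exons, which can exceed the exons the reads were counted on.

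The antisense RNA lay below its partner in level in 230 pairs and above it in 77, and in 2 pairs the partner was at 0 in all libraries. The median RNA stood at 33.1% of its partner, with quartiles of 12.8 and 99.0%. These ratios are per kilobase of exon. The plot of levels shows a wide scatter around the line of equal levels.

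**Figure D1:**
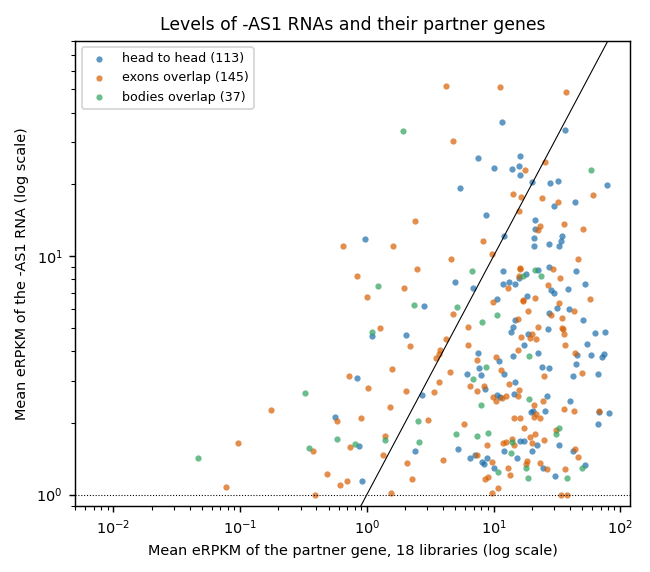
Mean eRPKM over 18 libraries of each -AS1 RNA (vertical, log scale) against that of its partner gene (horizontal, log scale), coloured by arrangement, with the number of pairs in brackets. The line marks equal levels and the dotted line the minimum of 1 eRPKM. Most points lie right of the line of equal levels, where the antisense RNA is the lower of the pair.

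Changes were tested with limma on log2(eRPKM + 0.5) across all 14993 genes, with p-values adjusted over all of them, and a gene was called higher or lower if its adjusted p was under 0.05 and it changed by more than 0.5 on the log2 scale. Fold changes on this scale understate the change of RNAs near 1 eRPKM. At least 1 of 6 comparisons of siRAD21 or OHT called 154 of the RNAs, and 159 were called in none. This count was not made over all genes, so it does not show whether antisense RNAs differ from other genes. Beside the count of called RNAs in each comparison stands the share of all genes called in the same direction. The RNAs named for the largest changes were taken among called RNAs whose 2 groups did not overlap, so the separation of their groups follows from that choice.

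The first comparison asked which antisense RNAs changed when RAD21 was silenced. At 48 h 57 of the 313 RNAs were higher and 33 lower in siRAD21 than in siCtrl cells, while 12.6% of all genes tested were called higher and 11.2% lower. The median log2 fold change was 0.15 over the antisense RNAs and -0.01 over all genes, and it kept its sign at 0.09 under quantile normalization, which brought the count to 43 higher and 41 lower, beside 11.9% of all genes in either direction. In the lower of the groups compared, 7 of the 57 and 4 of the 33 had a mean under 1 eRPKM. The partners of the RNAs had a median of 0.07, with 27 of 283 called higher and 33 lower. At 24 h 13 RNAs were higher and 6 lower, beside 5.83% of all genes called higher and 2.6% called lower, and under quantile normalization 9 were higher and 13 lower, beside 4.54% and 3.64%, with the median turning from 0.05 to -0.04.

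The RNAs that rose most with siRAD21 at 48 h were ITGB2-AS1, MSC-AS1, MCF2L-AS1, MATN1-AS1 and UNC5B-AS1. ITGB2-AS1, antisense to a leukocyte integrin chain, stood at 0.814, 0.584 and 1.01 eRPKM in siCtrl and at 4.29 and 3.81 eRPKM in siRAD21 libraries at 48 h. At 24 h it stood at 1.11 and 0.955 against 6.10 and 5.13 eRPKM. It stood higher with siRAD21 at both times, and the log2 fold change was 1.82 ± 0.14 (SE, adjusted p = 1.226e-07) at 48 h and 2.00 ± 0.16 (SE, adjusted p = 9.382e-07) at 24 h, by limma. ITGB2 itself rose by 1.99 on the log2 scale at 48 h (adjusted p = 2.703e-08), and the pair shares 303 exon bases.

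MSC-AS1, antisense to the gene of the bHLH repressor musculin, stood at 4.32, 4.21 and 3.92 eRPKM in siCtrl and at 13.6 and 13.1 eRPKM in siRAD21 libraries at 48 h. Its log2 fold change was 1.57 ± 0.11 (SE, adjusted p = 3.069e-08). MSC rose by 2.04 on the log2 scale (adjusted p = 6.04e-07), and the pair shares 468 of the annotated exon bases, where MSC-AS1 shares 1449 with all genes. UNC5B-AS1, which lies within the gene of the netrin receptor UNC5B at chr10:72976977-72978051 and shares none of its exon bases, went from 7.62, 7.41 and 7.31 eRPKM to 17.8 and 19.2 eRPKM. At 24 h it went from 4.10 and 3.66 to 11.8 and 10.9 eRPKM. The log2 fold change at 48 h was 1.26 ± 0.12 (SE, adjusted p = 1.01e-06), and that of UNC5B was 0.54 (adjusted p = 0.00191).

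MCF2L-AS1, antisense to the gene of a guanine nucleotide exchange factor, had 2.13, 1.04 and 1.85 eRPKM in siCtrl and 4.60 and 5.77 eRPKM in siRAD21 libraries at 48 h, a log2 fold change of 1.42 ± 0.19 (SE, adjusted p = 2.544e-05). MATN1-AS1, antisense to the gene of the cartilage protein matrilin, had 1.55, 1.66 and 2.44 against 5.28 and 5.21 eRPKM, a log2 fold change of 1.29 ± 0.15 (SE, adjusted p = 5.049e-06), while MATN1, which shares 836 exon bases with it, stayed below 1 eRPKM in these 5 libraries. Both RNAs stood between 1.04 and 2.44 eRPKM in the siCtrl libraries. MCF2L-AS1 shares 96 exon bases with MCF2L. PARD6G-AS1 rose by 1.23, SAP30L-AS1 by 1.20, NR2F2-AS1 by 1.14, TOB1-AS1 by 1.13 and CFLAR-AS1 by 1.07 on the log2 scale, with adjusted p from 8.025e-06 to 0.0006603 (limma). Of the partners of these 5, PARD6G, a cell polarity gene, rose by 1.5, TOB1, an antiproliferative gene, by 0.86 and CFLAR, a caspase inhibitor gene, by 0.51. CFLAR-AS1 shares 777 exon bases with CFLAR and TOB1-AS1 281 with TOB1, while PARD6G-AS1 shares none with PARD6G. SAP30L had a log2 fold change of 0.11 (adjusted p = 0.1368) and NR2F2, the gene of the nuclear receptor COUP-TFII, 0.13 (adjusted p = 0.1168), and neither shares exon bases with its antisense RNA, though SAP30L-AS1 shares 292 with any gene.

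TMPO-AS1 fell most with siRAD21 at 48 h. It lies head to head with TMPO, which encodes lamina-associated proteins of the nuclear envelope, at chr12:98906751-98910200. It stood at 4.51, 4.17 and 4.63 eRPKM in siCtrl and at 1.33 and 1.43 eRPKM in siRAD21 libraries, and at 24 h at 5.70 and 5.74 against 3.60 and 3.16 eRPKM. The log2 fold change at 48 h was -1.39 ± 0.10 (SE, adjusted p = 3.179e-08). TMPO had -0.72 (adjusted p = 3.066e-08), with 51.9, 55.5 and 53.3 eRPKM in siCtrl and 30.4 and 34.5 eRPKM in siRAD21 libraries, and the pair shares 646 exon bases.

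The promoter window of TMPO-AS1 is shown as that of the RNA with the largest fall. It comes from RefSeq (GRCh38.p14) and matched GRCh37 exactly once, at chr12:98909955-98910254 on the minus strand. It runs 5′ to 3′ on the strand of the RNA, from 250 bases before to 50 bases after its start. RAD21 shares many of its sites with CTCF, and capitals mark the matches to CCCTC, a core of the CTCF motif, or to its reverse complement GAGGG. There are 4 matches, and the last pair of them overlaps by 1 base.
TMPO-AS1: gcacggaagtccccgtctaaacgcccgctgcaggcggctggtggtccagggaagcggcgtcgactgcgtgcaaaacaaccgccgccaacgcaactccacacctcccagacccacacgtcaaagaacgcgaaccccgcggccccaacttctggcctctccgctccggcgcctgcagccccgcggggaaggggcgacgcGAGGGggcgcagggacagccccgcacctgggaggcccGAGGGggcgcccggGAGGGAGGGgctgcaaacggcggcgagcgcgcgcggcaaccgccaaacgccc
A promoter window was found for 238 of the 313 RNAs, 196 of them by their own symbol. CCCTC on either strand is in the windows of 78.6% of the 238, beside 73.3% of all 27305 genes of the table. Among RNAs higher with siRAD21 at 48 h 36 of 44 hold it, and among those lower 21 of 25.

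EPHA5-AS1, head to head with the ephrin receptor gene EPHA5, stood at 10.3, 9.34 and 12.6 eRPKM in siCtrl and at 4.28 and 3.75 eRPKM in siRAD21 libraries at 48 h, a log2 fold change of -1.31 ± 0.12 (SE, adjusted p = 4.151e-07). EPHA5 fell by 1.93 on the log2 scale, and 535 exon bases are shared. NR2F1-AS1, antisense to the gene of the nuclear receptor COUP-TFI, went from 2.35, 2.50 and 2.97 to 1.00 and 0.819 eRPKM, and NR2F1, which shares 158 exon bases with it, was below 1 eRPKM in each of these libraries.

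Another 6 RNAs were among the 10 largest falls at 48 h. LEF1-AS1 had a log2 fold change of -1.03, HHIP-AS1 -1.0, CHKB-AS1 -0.94, UPK1A-AS1 -0.94, ATP2A1-AS1 -0.84 and UBAC2-AS1 -0.82, with adjusted p from 0.0001993 to 0.005085 (limma). Of their partners, HHIP, the hedgehog interacting protein gene, fell with its antisense RNA by 1.37 on the log2 scale, and 813 exon bases are shared. HHIP-AS1 stood at 5.44, 4.06 and 4.01 eRPKM in siCtrl and at 2.27 and 1.73 eRPKM in siRAD21 libraries. Without siRAD21 replicate 1 at 48 h the adjusted p was 0.05866 for UPK1A-AS1 and 0.07597 for UBAC2-AS1. RAD21-AS1, head to head with the silenced gene and sharing 271 exon bases with it, stood at 1.79, 1.69 and 1.75 eRPKM in siCtrl and 1.05 and 1.02 eRPKM in siRAD21 libraries at 48 h, a log2 fold change of -0.55 ± 0.13 (SE, adjusted p = 0.002791). At 24 h it was -0.25 ± 0.14 (SE, adjusted p = 0.2309), which did not pass the test. RAD21 had -1.92 at 24 h and -2.99 at 48 h, and how many of the reads of RAD21-AS1 come from RAD21 was not tested.

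**Figure D2:**
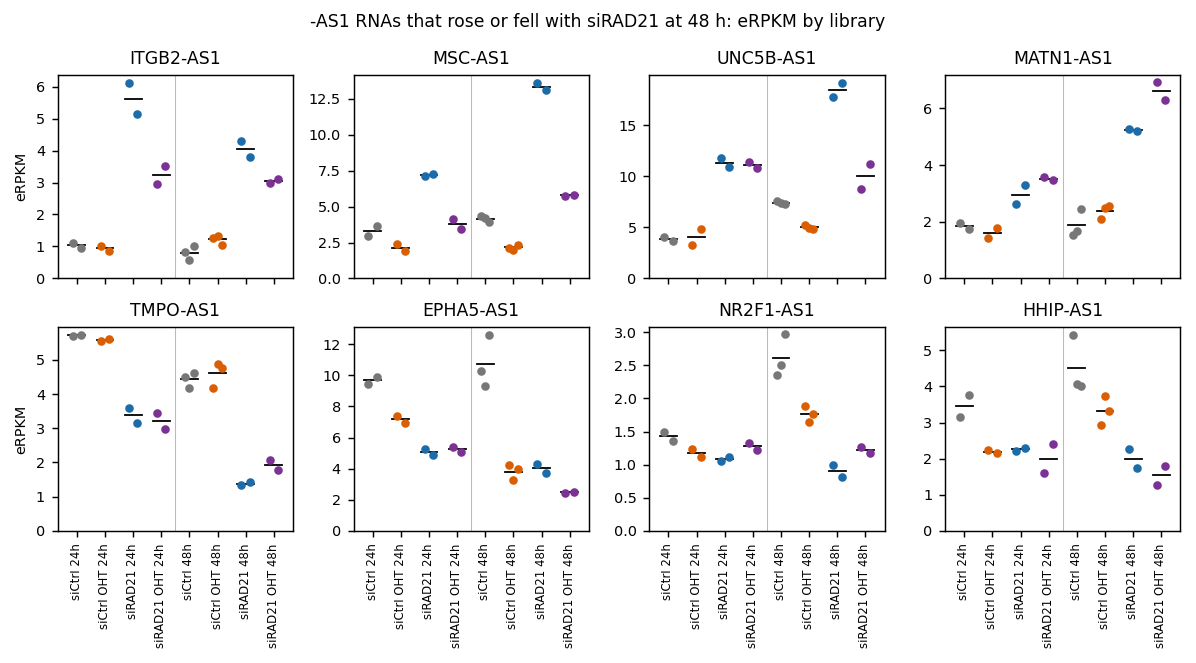
eRPKM (vertical, from 0) of 8 antisense RNAs in each library (points) of the 8 groups, with the group mean as a bar and the 24 h groups left of the grey line. In the upper row the siRAD21 libraries at 48 h lie above those of siCtrl, in the lower row below them.

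The calls at 24 and 48 h, which share no library, were compared by name, without the same overlap over all genes to set beside them. Of the 13 RNAs higher at 24 h, 9 were higher at 48 h, which is 69.2% of the first list and 15.8% of the 57. Of the 6 lower at 24 h, 4 were lower at 48 h, among them EPHA5-AS1, TGFB2-AS1 and TMPO-AS1. IL10RB-AS1 was called higher at 24 h (adjusted p = 0.04633) and lower at 48 h (adjusted p = 0.03993, limma), where its siRAD21 libraries at 2.54 and 1.25 eRPKM overlapped the 3.06, 2.34 and 3.16 eRPKM of siCtrl. Both calls were lost with the replicate numbers as a block, at 0.06316 and 0.07749, and that at 48 h became 0.6027 without siRAD21 replicate 2, so neither direction is firm. The largest rises at 24 h were ITGB2-AS1, UNC5B-AS1 and MCF2L-AS1, and the largest falls were EPHA5-AS1 at -0.88, TGFB2-AS1 at -0.81 and SMAD5-AS1 at -0.72 on the log2 scale. TGFB2-AS1 had an adjusted p of 0.02041, which became 0.1751 without siCtrl replicate 2 and 0.1364 without siRAD21 replicate 1 at 24 h. SMAD5-AS1 had 0.01554, which became 0.07693 and 0.1171 without the same libraries (limma).

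The change with siRAD21 at 48 h was also tested against that at 24 h. It was more positive at 48 h for 14 antisense RNAs and more negative for 9, beside 3.85% and 6.86% of all genes. Fewer RNAs were called without siRAD21 replicate 1 at 48 h, or without siRAD21 replicate 1 or 2 at 24 h. The same held without siCtrl replicate 2 at 24 h. Each of these fits leaves 1 library in a group, and fewer of all genes were called as well. The medians over the RNAs were then 0.065, 0.088, 0.087 and 0.088 in this order. Without siRAD21 replicate 1 at 48 h the more negative RNAs outnumbered the more positive. Which direction held more RNAs thus depended on single libraries. Quantile normalization gave 25 and 13, beside 4.96% and 7.1%. The median of this difference was 0.09 over the antisense RNAs and -0.01 over all genes, and 0.12 and 0.02 under quantile normalization. A2M-AS1 differed by -1.09 ± 0.15 (SE, adjusted p = 0.0001725), with 4.22 and 4.22 eRPKM in siCtrl and 5.64 and 6.09 eRPKM in siRAD21 at 24 h, and 4.13, 4.75 and 5.09 against 2.98 and 2.55 eRPKM at 48 h. It was thus above siCtrl at 24 h and below it at 48 h in every library. ZNF790-AS1 differed by 0.76 ± 0.15 (SE, adjusted p = 0.002464). LEF1-AS1 (-1.25), IL10RB-AS1 (-1.19), NR2F2-AS1 (0.98) and CLIP1-AS1 (0.92) had adjusted p from 0.01321 to 0.03439 (limma). The calls of LEF1-AS1, NR2F2-AS1 and CLIP1-AS1 were lost without siCtrl replicate 2 at 24 h, at 0.09647, 0.1248 and 0.08815, and also without any 1 of the 4 siRAD21 libraries. That of NR2F2-AS1 was lost as well without siCtrl replicate 1 or 2 at 48 h, at 0.06193 and 0.05604. That of IL10RB-AS1 was lost at 0.05917 without siRAD21 replicate 1 at 24 h and at 0.05883 without siRAD21 replicate 2 at 48 h.

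The second comparison asked which antisense RNAs changed when MycER was activated. With OHT at 48 h 28 RNAs were higher and 37 lower in siCtrl cells, beside 7.78% of all genes called higher and 10.1% lower. At 24 h 13 were higher and 15 lower, beside 3.68% and 5.1%. Fewer were lower without siCtrl replicate 1 or siCtrl OHT replicate 2 at 24 h, which leaves 1 library in a group. The share of all genes called lower fell as well. Of the 28 higher at 48 h, 11 had a siCtrl mean under 1 eRPKM, and of the 37 lower, 8 had a siCtrl OHT mean under 1 eRPKM. The median at 48 h was -0.05 over the antisense RNAs and -0.01 over all genes, and it turned to 0.04 under quantile normalization, with 36 RNAs higher and 17 lower, beside 8.28% and 7.98% of all genes. The same scaling gave 14 higher and 9 lower at 24 h, beside 4.1% and 3.97%, so the balance between rises and falls with OHT depends on the scaling. All 13 RNAs higher at 24 h were higher at 48 h, 46.4% of the 28, and 11 of the 15 lower at 24 h were lower at 48 h, 29.7% of the 37. These overlaps were not counted over all genes.

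FAM222A-AS1 rose most. It lies at chr12:110171971-110211313, overlaps FAM222A on the other strand and shares none of its exon bases. The libraries without OHT had 0.182 to 0.748 eRPKM and as few as 2 reads, while siCtrl OHT had 9.18 and 11.3 eRPKM at 24 h and 10.1, 9.20 and 8.18 eRPKM at 48 h, and siRAD21 OHT had 9.81 and 8.02 eRPKM at 24 h and 12.3 and 13 eRPKM at 48 h. Its mean was 0.422 eRPKM over the 9 libraries without OHT and 10.1 over the 9 with it, so it passed the minimum of 1 eRPKM through the OHT groups alone, and its values are given as a description. The log2 fold change at 48 h was 3.20 ± 0.15 (SE) in siCtrl and 3.82 ± 0.19 (SE) in siRAD21 cells, and the counts without OHT make the size of the rise imprecise. FAM222A stood at 8.96, 8.14 and 9.54 eRPKM in siCtrl and at 2.66 and 2.87 eRPKM in siRAD21 libraries at 48 h. With OHT it had -0.02 (adjusted p = 0.8816) in siCtrl cells and rose by 0.73 (adjusted p = 4.4e-05, limma) in siRAD21 cells, with an interaction of 0.75 (adjusted p = 0.002252).

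DPP10-AS1, which lies within DPP10, a gene of a potassium channel accessory protein, shares no exon bases with it and is found at chr2:115884199-115918962. It stood at 1.69, 2.33 and 1.90 eRPKM in siCtrl and at 10.3, 11.5 and 11.1 eRPKM in siCtrl OHT libraries at 48 h, a log2 fold change of 2.22 ± 0.11 (SE, adjusted p = 3.339e-09). DPP10 had -0.36 (adjusted p = 0.00988). RPARP-AS1, now named C10orf95-AS1, went from 5.80, 5.08 and 6.23 to 20.9, 21.1 and 20.8 eRPKM, a log2 fold change of 1.79 ± 0.07 (SE, adjusted p = 5.422e-10). The gene of its present name, C10orf95, stood at 0.787 ± 0.190 and 2.90 ± 0.482 eRPKM (SD, n = 3 each) in the same groups. RPARP-AS1 shares 1276 exon bases with any gene.

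KTN1-AS1, antisense to the gene of kinectin, a protein of the endoplasmic reticulum, went from 6.36, 7.87 and 7.11 to 16.8, 16.7 and 18.3 eRPKM with OHT at 48 h, a log2 fold change of 1.23 ± 0.07 (SE, adjusted p = 8.393e-09). KTN1 had 0.03 (adjusted p = 0.5524), with 54.9, 54.2 and 49.8 eRPKM in siCtrl and 52.6, 56.1 and 53.5 eRPKM in siCtrl OHT libraries, and the pair shares 79 exon bases. The separation of KTN1-AS1 follows from how it was chosen, and KTN1, which was not chosen in this way, overlapped between the groups. SLCO4A1-AS1, antisense to an organic anion transporter gene, went from 0.577, 0.842 and 0.717 to 2.06, 2.91 and 1.85 eRPKM. Its log2 fold change was 1.18 ± 0.19 (SE), while SLCO4A1 rose by 2.03 and shares 346 exon bases with it. SLCO4A1-AS1 and TRG-AS1 also lay under 1 eRPKM over the libraries without OHT, at means of 0.969 and 0.578. They thus passed the minimum through the OHT groups, and their values are given as a description. TRG-AS1, from the T-cell receptor gamma locus, rose by 1.63 on the log2 scale. PRKAG2-AS1 rose by 1.41, B3GALT5-AS1 by 1.14, ATP6V0E2-AS1 by 0.93 and CRYM-AS1 by 0.90, the last with an adjusted p of 1.35e-06 (limma). The siCtrl means of PRKAG2-AS1, B3GALT5-AS1 and ATP6V0E2-AS1 at 48 h were under 1 eRPKM, so their rises are given as a description. B3GALT5-AS1 also had means under 1 eRPKM in siCtrl and in siRAD21 at 24 h. PRKAG2, B3GALT5, ATP6V0E2 and CRYM were not called, with log2 fold changes of 0.35, 0.07, 0.10 and 0.01, and share 99, 132, 864 and 0 exon bases with their antisense RNAs.

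The promoter windows of 4 of the RNAs that rose with OHT are shown because Myc binds the E-box CACGTG. The windows come from the same table, have the same length and each matched GRCh37 exactly once. Capitals mark CACGTG, which reads the same on both strands. In the order shown they lie on the minus strand at chr12:110211243-110211542, chr20:61297924-61298223, chr14:56046761-56047060 and chr2:115918871-115919170.
FAM222A-AS1: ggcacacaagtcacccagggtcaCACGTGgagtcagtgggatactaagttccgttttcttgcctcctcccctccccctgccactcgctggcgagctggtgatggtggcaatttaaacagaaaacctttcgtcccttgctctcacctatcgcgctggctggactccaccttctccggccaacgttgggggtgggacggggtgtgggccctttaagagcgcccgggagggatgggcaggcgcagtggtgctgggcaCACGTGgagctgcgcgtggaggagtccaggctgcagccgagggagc
SLCO4A1-AS1: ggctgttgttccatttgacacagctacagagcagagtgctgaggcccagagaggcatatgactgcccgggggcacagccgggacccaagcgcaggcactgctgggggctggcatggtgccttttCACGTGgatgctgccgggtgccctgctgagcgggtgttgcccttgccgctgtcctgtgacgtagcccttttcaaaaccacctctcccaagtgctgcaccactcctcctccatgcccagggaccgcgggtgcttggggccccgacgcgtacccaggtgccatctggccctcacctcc
KTN1-AS1: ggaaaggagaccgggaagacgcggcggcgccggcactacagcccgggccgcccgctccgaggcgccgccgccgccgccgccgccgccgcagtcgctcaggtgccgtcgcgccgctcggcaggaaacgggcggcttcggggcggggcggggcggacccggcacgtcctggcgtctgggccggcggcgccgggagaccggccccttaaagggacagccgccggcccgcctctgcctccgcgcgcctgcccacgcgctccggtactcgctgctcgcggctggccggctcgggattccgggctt
DPP10-AS1: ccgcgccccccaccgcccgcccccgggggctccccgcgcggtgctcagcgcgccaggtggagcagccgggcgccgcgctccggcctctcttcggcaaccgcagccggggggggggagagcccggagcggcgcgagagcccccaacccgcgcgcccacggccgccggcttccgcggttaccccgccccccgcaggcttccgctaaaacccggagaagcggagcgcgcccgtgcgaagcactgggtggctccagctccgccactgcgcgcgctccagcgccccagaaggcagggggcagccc

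FAM222A-AS1 holds CACGTG at positions -227 and 5 from its start and SLCO4A1-AS1 at -126, while the windows of KTN1-AS1 and DPP10-AS1 hold none. Of the 238 RNAs with a window 25 (10.5%) hold CACGTG, where 8.77% of all genes of the table do. Of the RNAs higher with OHT at 48 h 4 of 22 hold it, and of those lower 4 of 30. A match says only that the letters are in the window, and no match only that they are not.

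The RNAs that fell most with OHT at 48 h were OSBPL10-AS1, STPG2-AS1, EPHA5-AS1, STARD4-AS1 and A2M-AS1. OSBPL10-AS1, antisense to a lipid binding protein gene, stood at 4.91, 4.77 and 4.77 eRPKM in siCtrl and at 1.08, 1.91 and 0.746 eRPKM in siCtrl OHT libraries, a log2 fold change of -1.66 ± 0.26 (SE, adjusted p = 0.0001017). STPG2-AS1 went from 2.68, 2.79 and 2.76 to 0.727, 0 and 1.32 eRPKM, with no read in 1 library. Both have short exons of 544 and 537 bases and few reads, with medians of 8.0 and 7.5 reads per library. EPHA5-AS1 fell by 1.38 on the log2 scale with OHT as it had with siRAD21, and the comparisons share their siCtrl libraries. EPHA5 fell by 1.72.

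STARD4-AS1, antisense to a sterol transport gene, went from 8.84, 9.09 and 12.3 to 3.43, 3.66 and 5.69 eRPKM, a log2 fold change of -1.17 ± 0.16 (SE, adjusted p = 2.5e-05), while STARD4 had -0.06 (adjusted p = 0.1692), and 124 exon bases are shared, where STARD4-AS1 shares 2239 with all genes. A2M-AS1 went from 4.13, 4.75 and 5.09 to 1.79, 1.90 and 2.04 eRPKM, and A2M, the gene of a plasma protease inhibitor, fell with it by 0.91 on the log2 scale with 561 shared exon bases. PRR34-AS1 fell by 0.87, H1FX-AS1 by 0.85, RAB6C-AS1 by 0.83, MSC-AS1 by 0.80 and TOB1-AS1 by 0.80 on the log2 scale, with adjusted p from 9.418e-06 to 0.000948 (limma). MSC-AS1 and TOB1-AS1 are thus RNAs that were higher with siRAD21 and lower with OHT, again against the same siCtrl libraries. At 24 h H1FX-AS1, LRRC2-AS1 and SLC2A1-AS1 fell most, by 1.15, 0.88 and 0.81 on the log2 scale. The adjusted p of LRRC2-AS1 was 0.01354 and became 0.09828 without siCtrl replicate 1 and 0.146 without siCtrl OHT replicate 2 at 24 h. That of SLC2A1-AS1 was 0.02784 and rose to between 0.05116 and 0.1453 without any 1 of the 4 libraries compared.

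**Figure D3:**
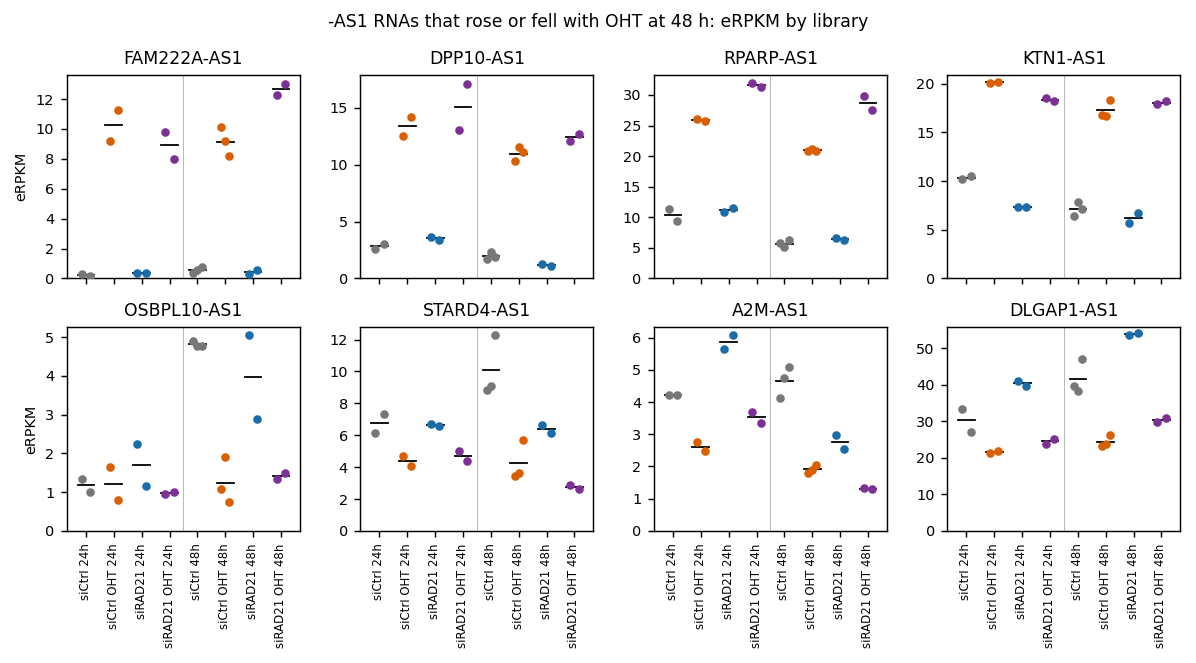
eRPKM (vertical, from 0) of 8 antisense RNAs in each library (points) of the 8 groups, with the group mean as a bar and the 24 h groups left of the grey line. The upper 4 RNAs lie higher with OHT at both times and with both siRNAs, and the lower 4 lie lower with OHT at 48 h.

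In cells with siRAD21, OHT raised 30 antisense RNAs and lowered 56 at 48 h, beside 12.4% and 16.2% of all genes, and 45 and 35 under quantile normalization, beside 13% and 13.1%. With the siRAD21 OHT libraries averaged to 1 they were 28 and 48, beside 12% and 15.1%. At 24 h 14 were higher and 21 lower, beside 4.29% and 7.62%, and 24 and 17 under quantile normalization, beside 5.43% and 5.74%. The medians of -0.12 at 48 h and -0.10 at 24 h turned to 0.04 and 0.01 under that scaling. FAM222A-AS1, DPP10-AS1 and TRG-AS1 rose most at both times, TRG-AS1 from 0.756 and 0.585 to 5.01 and 5.91 eRPKM at 48 h. STPG2-AS1, NR2F2-AS1 and VLDLR-AS1 fell most at 48 h, and LRRC2-AS1, COL4A2-AS1 and NR2F2-AS1 at 24 h. COL4A2-AS1 had an adjusted p of 0.0181, which rose to between 0.05702 and 0.09648 without any 1 of the 4 libraries compared.

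The response to OHT in siCtrl and in siRAD21 cells, which share no library, was compared by name. The same overlap was not counted over all genes, so these shares cannot be called particular to antisense RNAs. At 48 h 21 RNAs rose in both, 75% of the 28 in siCtrl and 70% of the 30 in siRAD21 cells, and 27 fell in both, 73% of the 37 and 48.2% of the 56. At 24 h 10 rose and 10 fell in both. SH3PXD2A-AS1 was the 1 RNA called in opposite directions, higher with OHT in siCtrl and lower in siRAD21 cells at 48 h.

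The test of the difference between these responses, the siRNA by OHT interaction at 48 h, called 5 RNAs higher and 9 lower, beside 3.33% and 3.97% of all genes. Under quantile normalization it called 8 and 9, beside 4.3% and 4.17%. The share of all genes called lower was 4.34% without siCtrl OHT replicate 3 at 48 h. With the siRAD21 OHT libraries averaged to 1 they were 3 and 8, beside 2.73% and 2.77%, and without siCtrl OHT replicate 3 at 48 h 14 were lower. SH3PXD2A-AS1, which lies within the gene of a podosome scaffold protein, stood at 3.86, 4.59 and 3.48 eRPKM in siCtrl, 5.79, 7.53 and 5.62 in siCtrl OHT, 2.72 and 2.28 in siRAD21 and 1.08 and 1.01 eRPKM in siRAD21 OHT libraries. The interaction was -1.56 ± 0.21 on the log2 scale (SE, adjusted p = 0.0002964). SH3PXD2A itself stood at 6.93, 5.08 and 6.03 eRPKM in siCtrl and 20.6 and 18 eRPKM in siRAD21, so that the partner rose by 1.61 with siRAD21 where the antisense RNA fell by 0.58 on the log2 scale. The pair shares no exon bases. The fall of the antisense RNA became 0.48 without siCtrl replicate 2 and 0.47 without siRAD21 replicate 2 at 48 h, which no longer passed the fold threshold.

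NR2F2-AS1, VLDLR-AS1, SAP30L-AS1 and GAS6-AS1 rose with siRAD21 alone and had negative interactions, with siRAD21 OHT libraries overlapping or below the levels of siCtrl. NR2F2-AS1 had 1.83, 2.03 and 2.38 eRPKM in siCtrl, 5.44 and 4.92 in siRAD21 and 1.07 and 0.972 eRPKM in siRAD21 OHT libraries, with an interaction of -1.33 ± 0.29 (SE, adjusted p = 0.006828). VLDLR-AS1, antisense to a lipoprotein receptor gene, had 4.25, 4.07 and 4.42, then 8.60 and 7.55, then 2.23 and 2.56 eRPKM in the same groups, with an interaction of -0.95 ± 0.13 (SE, adjusted p = 0.0003016). In both the siRAD21 libraries lay above all others at 48 h. With OHT in siRAD21 cells NR2F2-AS1 changed by -1.90 and VLDLR-AS1 by -1.57, more in size than their interactions. Both thus had a negative, smaller change with OHT in siCtrl cells too. SAP30L-AS1 had an interaction of -0.99 and GAS6-AS1 of -0.80, with adjusted p of 0.004913 and 0.0002121. GAS6-AS1, antisense to the gene of a TAM receptor ligand with which it shares 421 exon bases, had 24.3 and 25.5 eRPKM in siRAD21 and 13.9 and 13.4 eRPKM in siRAD21 OHT, beside 14.7, 14.4 and 16.7 eRPKM in siCtrl libraries. SAP30L-AS1 had 7.68 and 5.99 in siRAD21 and 2.01 and 2.72 eRPKM in siRAD21 OHT, beside 2.56, 2.58 and 2.88 eRPKM in siCtrl libraries.

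SLC7A11-AS1, EPHA5-AS1, NR2F1-AS1 and DPP10-AS1 had a positive interaction, of 0.90, 0.78, 0.75 and 0.73 on the log2 scale with adjusted p from 0.005459 to 0.01734 (limma). EPHA5-AS1 changed by -1.38 with OHT in siCtrl cells, more in size than its interaction. For EPHA5-AS1 the interaction is thus a smaller fall with OHT in siRAD21 cells, not a rise. SLC7A11-AS1, antisense to the cystine transporter gene SLC7A11, stood at 1.22 and 0.863 eRPKM in siRAD21 and 1.80 and 1.62 eRPKM in siRAD21 OHT libraries, and SLC7A11 at 10.8 and 10.6 against 20.1 and 21.2 eRPKM, with 865 shared exon bases. Its call was lost at an adjusted p of 0.0779 without siRAD21 replicate 2 and 0.07343 without siRAD21 OHT replicate 1. NR2F1-AS1 stood at 1.88, 1.65 and 1.76 eRPKM in siCtrl OHT and 1.27 and 1.18 in siRAD21 OHT libraries. ITGB2-AS1 had an interaction of -0.77 (adjusted p = 0.01844), which lost its call at 0.08674 without siRAD21 replicate 1 and at 0.07005 and 0.05045 without siRAD21 OHT replicate 1 and 2. With the siRAD21 OHT libraries averaged to 1, its adjusted p was 0.06257 and that of SLC7A11-AS1 0.05714.

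**Figure D4:**
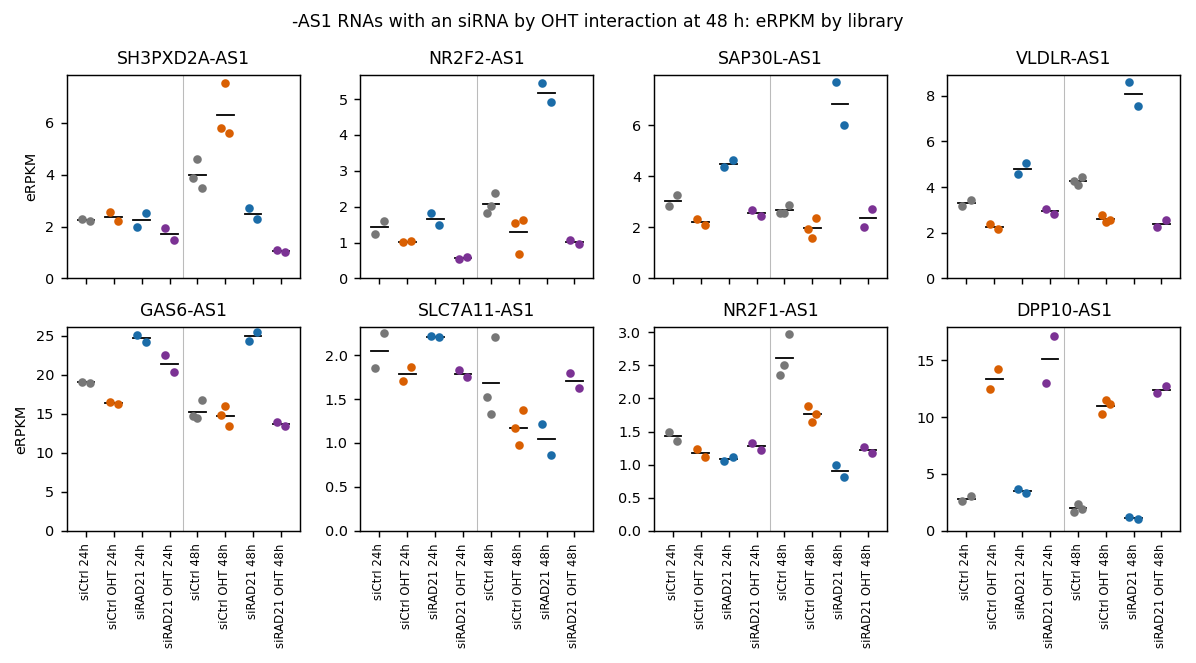
eRPKM (vertical, from 0) of 8 antisense RNAs with an siRNA by OHT interaction at 48 h in each library (points), with the group mean as a bar and the 24 h groups left of the grey line. SH3PXD2A-AS1 is highest in siCtrl OHT and lowest in siRAD21 OHT at 48 h, and NR2F2-AS1, SAP30L-AS1 and VLDLR-AS1 are highest in siRAD21 at 48 h.

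The change of each antisense RNA was then set beside that of its partner, which was tested in 283 pairs. With siRAD21 at 48 h 22 pairs were called in the same direction and 5 in opposite directions, in 54 the antisense RNA alone was called, in 33 the partner alone and in 169 neither. With OHT at 48 h in siCtrl cells the numbers were 12, 3, 41, 30 and 197. The log2 fold changes of the pairs had a correlation of 0.39 with siRAD21 and 0.30 with OHT. Among the 185 pairs that share exon bases it was 0.46 and 0.45, and among the 88 that share none 0.25 and 0.05. With OHT in siRAD21 cells at 48 h it was 0.336 and 0.295 in these sets, and for the interaction 0.342 and 0.413, so the set that shares bases was not the higher in each comparison. At 24 h it was 0.449 and 0.257 with siRAD21, 0.371 and 0.062 with OHT in siCtrl and 0.362 and 0.139 with OHT in siRAD21 cells, and for the difference between the times 0.261 and 0.221. These correlations run over pairs measured in the same libraries and are descriptions. Neither joint calls nor correlations were computed for pairs of other genes, so they do not show that a pair is coupled. Reads on shared bases, which the kit cannot assign, were present in the first set only, and their part in the difference was not tested. By arrangement, the correlation with siRAD21 was 0.49 for overlapping exons, 0.33 for head-to-head pairs and 0.21 for pairs whose bodies alone overlap.

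**Figure D5:**
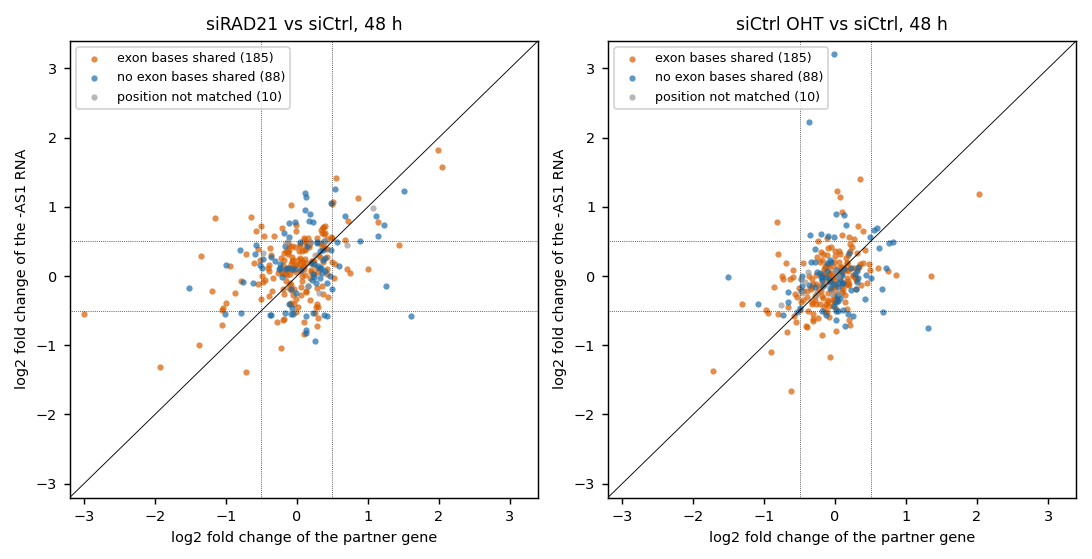
log2 fold change of each antisense RNA (vertical) against that of its partner gene (horizontal) for siRAD21 (left) and OHT (right) at 48 h, coloured by whether the pair shares annotated exon bases, with the number of pairs in brackets. The line marks equal changes and the dotted lines a log2 fold change of 0.5 in either direction. Most pairs lie near the centre, and FAM222A-AS1, at the top of the right panel, stands over a partner near 0.

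The pairs called in opposite directions with siRAD21 at 48 h included those of VLDLR-AS1, MRPL23-AS1, GABPB1-AS1 and SH3PXD2A-AS1. VLDLR-AS1 rose by 0.85 while VLDLR fell by 0.65, from 11.3, 10.1 and 11.9 to 7.51 and 6.25 eRPKM, and 260 exon bases are shared.

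GABPB1-AS1, head to head with the gene of a GABP transcription factor subunit, went from 8.39, 9.28 and 10.1 to 15.1 and 14.4 eRPKM, and GABPB1 from 22.1, 23.9 and 21.7 to 14.4 and 15.6 eRPKM. The log2 fold changes were 0.65 (adjusted p = 9.055e-06) and -0.57 (adjusted p = 2.327e-06), and 424 exon bases are shared. MRPL23-AS1, which shares 85 exon bases with MRPL23, with 1.99, 1.21 and 1.85 against 3.61 and 2.57 eRPKM, had an adjusted p of 0.04209. Its call was lost at 0.1408 without siCtrl replicate 2, 0.05362 without siCtrl replicate 3 and 0.2695 without siRAD21 replicate 1 at 48 h, and at 0.05036 and 0.05046 without siRAD21 replicate 1 or 2 at 24 h.

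With OHT at 48 h the opposite pairs were those of DLGAP1-AS1, GMDS-AS1 and MCF2L-AS1. DLGAP1-AS1, which shares no exon bases with the postsynaptic scaffold gene DLGAP1 and lies at chr18:3593730-3598361, stood at 39.7, 38.3 and 47.0 eRPKM in siCtrl and 23.3, 23.8 and 26.3 eRPKM in siCtrl OHT libraries, a log2 fold change of -0.75 ± 0.08 (SE, adjusted p = 2.409e-06). DLGAP1 rose from 0.715, 0.674 and 0.740 to 2.72, 2.32 and 2.47 eRPKM, by 1.31 on the log2 scale (adjusted p = 2.788e-08). MCF2L-AS1 rose by 0.78 (adjusted p = 0.001696) while MCF2L fell by 0.81 (adjusted p = 3.175e-06). GMDS-AS1 fell by 0.52 (adjusted p = 0.004605) while GMDS, an enzyme gene of GDP-fucose synthesis, rose by 0.68. GMDS-AS1 missed the fold threshold at -0.45 without siCtrl replicate 1 and at -0.49 and -0.43 without siCtrl OHT replicate 1 and 3 at 48 h.

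The calls were also counted by arrangement and level, to be read beside the 12.6% of all genes called higher and 11.2% lower with siRAD21 at 48 h, and the 7.78% and 10.1% with OHT at 48 h in siCtrl cells. With siRAD21 at 48 h 18 of 113 head-to-head RNAs were higher and 16 lower, 25 and 12 of 146 with overlapping exons, and 12 and 5 of 38 whose bodies alone overlap the partner. Of the 38 RNAs now named -DT, 7 were higher and 7 lower. Of the 51 RNAs with a mean of at least 10 eRPKM, 5 were higher and 4 lower, and of the 107 from 2 to 5 eRPKM 24 and 11. With OHT at 48 h the 51 abundant RNAs gave 7 higher and 2 lower, while the 107 gave 6 higher and 13 lower. No test was made between these kinds, whose reads per library differ.

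Other noncoding RNAs were counted in the same way, beside the same shares of 12.6% and 11.2% with siRAD21 and 7.78% and 10.1% with OHT. These lists are small. Of the 27 genes whose symbols end in -AS2 to -AS9, 6 were higher and 4 lower with siRAD21 at 48 h, and 2 were higher and 9 lower with OHT. Among 6 symbols that end in -AS with no number, the counts were 2 and 1 with siRAD21 and 1 and 1 with OHT, and among 12 that end in -IT1 or -OT1 3 and 1 with siRAD21 and 0 and 2 with OHT. Of 7 antisense RNAs with names of their own, such as ZFAS1 and KCNQ1OT1, 1 was higher and 2 lower with siRAD21, and 1 was higher and 1 lower with OHT. Of 7 other long noncoding RNAs, such as NEAT1 and TUG1, 2 were higher with siRAD21 and none passed with OHT.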

How the data were processed

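RNA-seq was performed on 18 libraries of U2OS-MycER cells from ribosomal RNA-depleted total RNA, with a kit that does not mark the strand. Per the study's methods and the submitters' processing notes, reads were mapped to hg19 with TopHat2 (2.0.8), PCR duplicates were removed, which limits the level that an abundant gene can reach, and reads on exons were counted with featureCounts (1.4.5), with SAMtools also named. The authors deposited 1 table of RPKM values over exons (eRPKM) for 23399 genes and no counts. The values were whole multiples of 1 read, within 0.02 reads, for 22033 genes, while 1359 genes were at 0 throughout. Depth was taken from 623 genes of a single exon, and the reads recovered made up 99.16 to 99.40% of it.

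Genes with a mean of at least 1 eRPKM were tested with limma (3.58.1, R 4.3.3) on log2(eRPKM + 0.5), with 1 mean for each of 8 groups over all 18 libraries, a variance trend and Benjamini-Hochberg adjustment over 14993 genes. The fit was also run on simulated data. The siRAD21 OHT libraries at 48 h both entered this fit, and an alternative averaged them. Replicate numbers from the labels paired siCtrl and siCtrl OHT at 48 h by the correlation of their deviations, 0.258, 0.13 and 0.157 for numbers 1, 2 and 3, and the blocked fit is given in the closing section. Read counts were rebuilt for voom in limma as an alternative. Positions and shared exon bases came from GENCODE for GRCh37, and promoter windows from RefSeq, read with Python (3.11.15), pandas (2.3.3) and numpy (2.4.6), with plots in matplotlib (3.10.9).

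The antisense RNAs, the other lists and the tests were chosen with earlier results of these data known. Genes named in the text were RAD21, MYC and RAD21-AS1, the 10 largest rises and falls of siRAD21 and of OHT (in siCtrl cells) at 48 h among called RNAs whose groups did not overlap, the 3 largest in each other comparison, up to 10 RNAs with an interaction, the 6 of highest level, 3 on either side of the minimum, all called opposite to their partner at 48 h, and the partners. Alternatives were other pseudocounts, filters, scalings, variance settings, fits on the groups compared alone, and leaving out each library. All columns of the table were mapped to samples, and no pooled column was used. A few results that the rule would name are not reported here.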

Additional observations from a re-analysis of the deposited data

Results flagged for a closer look

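The response of 14 antisense RNAs to OHT at 48 h differed between siRAD21 and siCtrl cells by the interaction term of limma. This is 4.47% of the RNAs, beside 7.3% of all genes, and values are given for the 10 that were largest in size. The interaction on the log2 scale was -1.56 for SH3PXD2A-AS1, -1.33 for NR2F2-AS1, -0.99 for SAP30L-AS1, -0.95 for VLDLR-AS1, -0.80 for GAS6-AS1 and -0.77 for ITGB2-AS1. It was 0.90 for SLC7A11-AS1, 0.78 for EPHA5-AS1, 0.75 for NR2F1-AS1 and 0.73 for DPP10-AS1. In voom the adjusted p was 0.113 for DPP10-AS1 and 0.05156 for EPHA5-AS1, which lost the call. The change with siRAD21 differed between 24 and 48 h for 23 RNAs, 7.35% of them beside 10.7% of all genes, and the 3 largest in each direction are given. Neither count thus sets the antisense RNAs above other genes. The difference, 48 h minus 24 h, was 0.98 for NR2F2-AS1, 0.92 for CLIP1-AS1, 0.76 for ZNF790-AS1, -1.25 for LEF1-AS1, -1.19 for IL10RB-AS1 and -1.09 for A2M-AS1. Each time had its own siCtrl group, so a change with time in culture that siCtrl cells share is subtracted. Cells at 24 and 48 h were separate samples. Whether the response to siRAD21 itself varied with time in culture or with the time of silencing cannot be told apart.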

How the results depend on the processing

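The log2 fold changes of single antisense RNAs were recomputed for 93 changes, and none of these turned in direction under an alternative that gave it a value. With only genes of at least 5 eRPKM tested, 117 of the RNAs remained, which drops the lower RNAs by construction. Of these, 7 were called with siRAD21 at 24 h, beside 4.09% of all genes higher and 2.7% lower. At 48 h 34 were called, beside 9.84% and 11.1%. With OHT in siCtrl cells 12 and 24 were called, beside 3.04% and 3.76% at 24 h and 7.78% and 7.38% at 48 h. With OHT in siRAD21 cells 13 and 30 were called, beside 4.02% and 5.37%, then 13.7% and 11.9%. The interaction called 6, beside 3.48% and 3.13%, and the siRAD21 change that differed between 48 and 24 h 11, beside 3.39% and 6.49%. Over all 313 RNAs and without the fold threshold the first 6 of these counts were 35, 145, 55, 127, 65 and 132. The share of all genes called was not counted in this setting. A pseudocount of 1 left 42 RNAs called with OHT at 48 h in siCtrl cells, beside 7.01% of all genes called higher and 8.57% lower. Quantile normalization raised the RNAs whose siRAD21 change differed between the times from 23 to 38, and the cause was not tested. With the replicate block the 8 counts were 18, 85, 27, 65, 38, 83, 18 and 26, and of the 93 changes the calls of IL10RB-AS1 at 24 and 48 h were lost. With the numbers of siCtrl at 24 h crossed, a pairing added after seeing correlations of -0.134 and -0.169, they were 20, 87, 28, 65, 38, 88, 21 and 30. In both blocked fits 12.7% of all genes were called higher and 10.8% lower with siRAD21 at 48 h. With OHT at 48 h in siCtrl cells the shares were 7.8% and 10.2%.

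With each library left out in turn the counts were 14 to 20 with siRAD21 at 24 h and 80 to 95 at 48 h, 18 to 29 and 54 to 68 with OHT in siCtrl cells, 33 to 41 and 69 to 93 with OHT in siRAD21 cells, 11 to 21 for the interaction and 13 to 28 for the difference between the times. The 18 came without siCtrl OHT replicate 2 at 24 h. The 13 came without siRAD21 replicate 1 at 24 h, and 14 came without siRAD21 replicate 2 at 24 h or replicate 1 at 48 h. In these fits a lone library is assumed to vary like the other groups, and the shares of all genes called moved as well. Averaging the siRAD21 OHT libraries at 48 h gave 76 RNAs called with OHT in siRAD21 cells and 11 with an interaction.

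Of the RNAs named, RAD21-AS1 at 48 h had -0.43 with a pseudocount of 1, short of the fold threshold, GMDS-AS1 lost its call with a pseudocount of 1, centring and quantile normalization, and MRPL23-AS1 lost its call in 4 alternatives besides libraries left out. LEF1-AS1 and SLC2A1-AS1 lost their calls under quantile normalization, NR2F2-AS1 with a pseudocount of 0.1 or all genes tested (48 h minus 24 h), and CLIP1-AS1 and SLC7A11-AS1 when the fit held the compared groups alone. Most of the antisense RNAs have few reads, 2 libraries in most groups leave the spread to be borrowed from other genes, and reads on shared exon bases cannot be assigned to a strand.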
